A study of Arabidopsis thaliana with 8 samples.

Results

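COR27 (AT5G42900), COR28 (AT4G33980) and GI (AT1G22770) are cold-responsive genes of Arabidopsis thaliana that are tied to the circadian clock. They were taken by name, but with earlier results of these data known, as were the gene lists below. Counts of calls among them beside all probe sets are therefore description and not independent evidence. Each gene was read through its 1 probe set on the Affymetrix array: 249174_at for COR27, 253322_at for COR28 and 264211_at for GI. They are 3 of the 13356 genes to which the annotation used here gave a probe set of their own, and all 3 were measured. The array annotation lists COR28 under its locus name. Total RNA came from whole seedlings grown at 22 °C for 10 days. The wild type was ecotype Col-1, and L20 is a line that overexpresses TabZIP6, a wheat gene for a bZIP transcription factor. Both lines were collected before cold and after 6 h at 4 °C, with 2 biological replicates in each of the 4 groups and 8 arrays in all. The labels give no promoter for the transgene, no ecotype for L20 and no control line with an empty vector, so L20 stands for 1 transgenic line.

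The circadian clock of plants is a loop of genes that repress or activate each other through the day, and it sets how strongly many cold-responsive genes react at a given hour. GI encodes GIGANTEA, a large protein that peaks late in the day, stabilises the F-box photoreceptor ZTL, acts with FKF1 in day-length flowering and affects freezing tolerance. COR27 and COR28 encode small related proteins that are induced by cold, act as repressors of evening clock genes and interact with the light-signalling ubiquitin ligase COP1. All 3 transcripts follow a daily rhythm. The labels do not give the hour of collection, so the chilled seedlings may have been collected 6 h after the unchilled ones. No unchilled group matched to a later hour is among the 8 arrays. A response to cold and a change with the time of day therefore cannot be told apart in any of the comparisons of chilled with unchilled seedlings below.

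GI and COR28 were low in unchilled seedlings of both lines and high in chilled ones. COR27 in unchilled L20 lay between its unchilled and chilled wild-type levels. The COR27 difference between the unchilled lines missed the test over all probe sets. After 6 h at 4 °C the means of the 3 genes were close in wild type and L20, which does not show that the lines were alike. Averaged over the lines, COR28 rose 3.14-fold and GI rose 2.43-fold with cold, and both passed the test over all probe sets. COR27 had a mean change of 2.19-fold and missed it. None of these genes passed when each line was tested alone, and the calls of COR28 and GI rested on the full set of arrays. Values are log2 signals of a probe set, so a difference of 1 is a doubling, and they are given per array, replicate 1 first. In whole seedlings, fewer cells of a type and less RNA per cell cannot be told apart.

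The COR27 signal in wild type was 6.78 and 7.54 before cold. After cold it was 8.70 and 9.02, above both unchilled arrays. The unchilled L20 arrays gave 8.52 and 7.83, and the chilled ones 8.76 and 8.71. Unchilled L20 thus lay between unchilled and chilled wild type on both arrays. The share of all probe sets with this order was not counted. The group means, from low to high, were 7.16 ± 0.54 in wild type before cold, 8.18 ± 0.49 in L20 before cold, 8.74 ± 0.04 in L20 after cold and 8.86 ± 0.23 in wild type after cold (SD, n = 2). The 2 chilled groups overlapped.

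COR28 gave 6.65 and 7.69 in wild type before cold and 8.91 and 8.38 after it. In L20 it gave 6.74 and 6.70 before cold and 8.65 and 8.45 after it. Every chilled array was above every unchilled one, by at least 0.69. Its lowest mean was that of L20 before cold, 6.72 ± 0.03, followed by 7.17 ± 0.74 in wild type before cold, 8.55 ± 0.14 in L20 after cold and 8.64 ± 0.37 in wild type after cold. Both unchilled L20 arrays fell within the spread of the unchilled wild-type arrays, and both chilled L20 arrays within that of the chilled wild type.

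The GI signal was 7.42 and 8.11 in wild type before cold and 8.97 and 8.79 on the chilled arrays. The L20 arrays read 7.35 and 7.06 before cold and 8.93 and 8.38 after it. Chilled and unchilled arrays did not overlap, with a gap of 0.27 between the lowest chilled and the highest unchilled array. The order of means was the same as for COR28: 7.21 ± 0.20 in L20 before cold, 7.77 ± 0.49 in wild type before cold, 8.65 ± 0.38 in L20 after cold and 8.88 ± 0.13 in wild type after cold. The 2 chilled groups overlapped, and the 2 unchilled groups were separated by 0.07 between their nearest arrays.

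**Figure D1:**
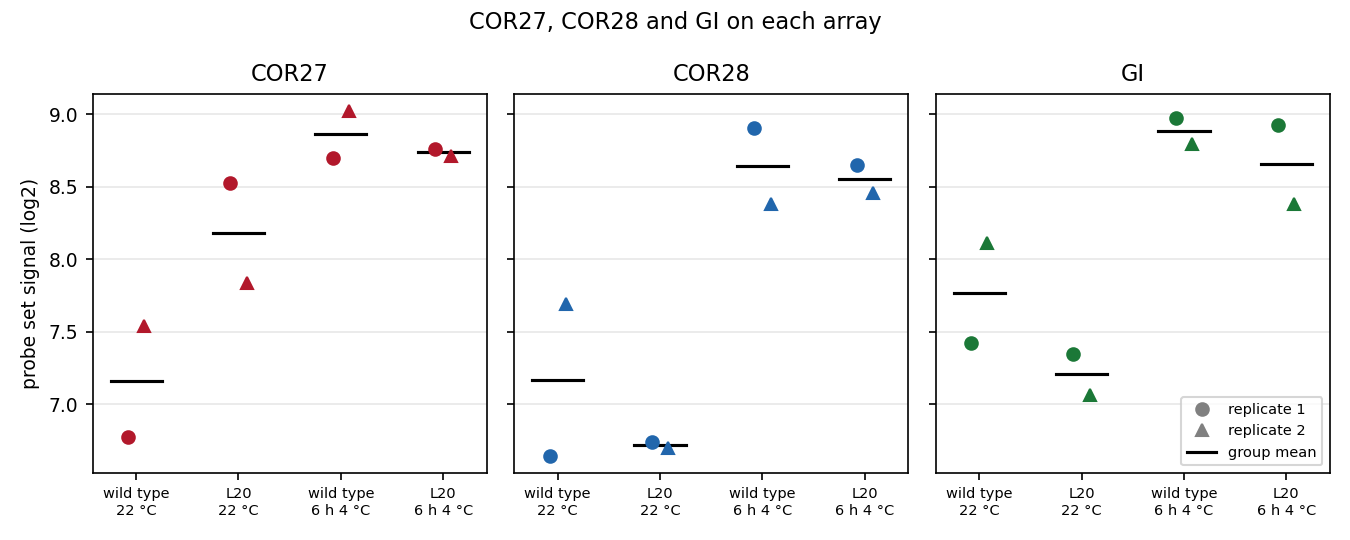
Log2 signal of the probe sets for COR27, COR28 and GI on each of the 8 arrays, by line and temperature; circles are replicate 1, triangles replicate 2 and black lines the group means. COR28 and GI are low in both unchilled groups, while COR27 in unchilled L20 (8.52 and 7.83) lies between unchilled and chilled wild type. The COR27 difference between the unchilled lines missed the test over all probe sets.

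The spread between replicates was widest in unchilled wild type. There, replicate 2 read higher than replicate 1 by 0.77 for COR27, 1.05 for COR28 and 0.69 for GI. The SD of COR28 in that group, 0.74, was exceeded by only 4.12% of all probe sets, whose median SD was 0.19. In the other 3 groups the widest gap between replicates of these genes was 0.69, for COR27 in unchilled L20, and the smallest was 0.04, for COR28 in the same group. A shared direction of the replicate gap was seen only in unchilled wild type (replicate 2 higher) and in both L20 groups (replicate 1 higher). Comparisons with unchilled wild type moved with the choice of array, as the values below show.

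Cold in wild type was tested with limma, a linear model fitted over all 22746 probe sets with Benjamini-Hochberg adjustment. COR27 differed by 1.70 ± 0.33 on the log2 scale (SE; 3.26-fold, 95% interval 1.90 to 5.59), with limma's adjusted p = 0.127. For COR28 the difference was 1.47 ± 0.35 (2.78-fold, 1.55 to 4.97; limma adjusted p = 0.235), and for GI 1.12 ± 0.30 (2.17-fold, 1.34 to 3.53; limma adjusted p = 0.287). Limma called 0 of the 3 at an adjusted p under 0.05, where 0.532% of all probe sets passed, and all 3 had an unadjusted p under 0.05, as did 6.63% of all probe sets. Among all probe sets 0.822% had a larger increase than COR27, 1.18% than COR28 and 1.97% than GI.

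Read within a replicate number, the wild-type change of COR27 was 1.92 in replicate 1 and 1.48 in replicate 2. That of COR28 was 2.26 and 0.69, and that of GI was 1.55 and 0.68. All 6 values were positive, and the smaller one came from replicate 2 for each gene, where the unchilled array was high. Without that array, replicate 2 of wild type before cold, the change of COR28 was 2.00 and that of GI 1.46. Without replicate 1 of the same group they were 0.95 and 0.77.

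Cold in L20 gave another order. COR28 differed by 1.83 ± 0.35 (3.56-fold, 95% interval 1.99 to 6.38; limma adjusted p = 0.107) and GI by 1.45 ± 0.30 (2.73-fold, 1.68 to 4.43; limma adjusted p = 0.122). COR27 differed by 0.56 ± 0.33 (1.47-fold), and its interval of 0.858 to 2.53 on the fold scale included no change (limma adjusted p = 0.741). Limma called 0 of the 3, against 0.378% of all probe sets, and 2 had an unadjusted p under 0.05, as did 9.73% of all probe sets. Within replicate numbers the values were 1.91 and 1.76 for COR28 and 1.58 and 1.32 for GI. The values for COR27 were 0.24 and 0.88. The increase of COR28 was exceeded by 0.677% of probe sets and that of GI by 1.12%, while 5.79% had a larger increase than COR27.

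Both lines together tested the mean cold response, which averages the cold changes of wild type and L20 and so has a smaller standard error. COR28 rose by 1.65 ± 0.25 (95% interval of the fold 2.08 to 4.75; limma adjusted p = 0.0255). GI rose by 1.28 ± 0.21 (1.73 to 3.43; limma adjusted p = 0.0320). COR27 differed by 1.13 ± 0.23 (1.49 to 3.21) and missed at limma's adjusted p = 0.0703. The count was thus 2 of 3 in the same direction, beside 2.11% of all probe sets called in either direction, 301 higher and 179 lower. With the replicate number as a block, COR27 passed as well (limma adjusted p = 0.0397), where 6.19% of probe sets were called.

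These calls rested on the full set of arrays. COR28 passed in 2 of the 8 fits with 1 array left out, those without replicate 1 or 2 of wild type before cold (limma adjusted p = 0.0400 and 0.0219). GI passed in 1, without replicate 2 of wild type before cold (0.0483). In the other fits limma's adjusted p lay between 0.0580 and 0.104 for COR28 and between 0.0502 and 0.129 for GI. In these 8 fits the mean change ran from 1.39 to 1.91 for COR28 and from 1.11 to 1.46 for GI. All 4 chilled arrays were above all 4 unchilled ones for each of the 3 genes, a pattern that 5.05% of all probe sets shared.

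**Figure D2:**
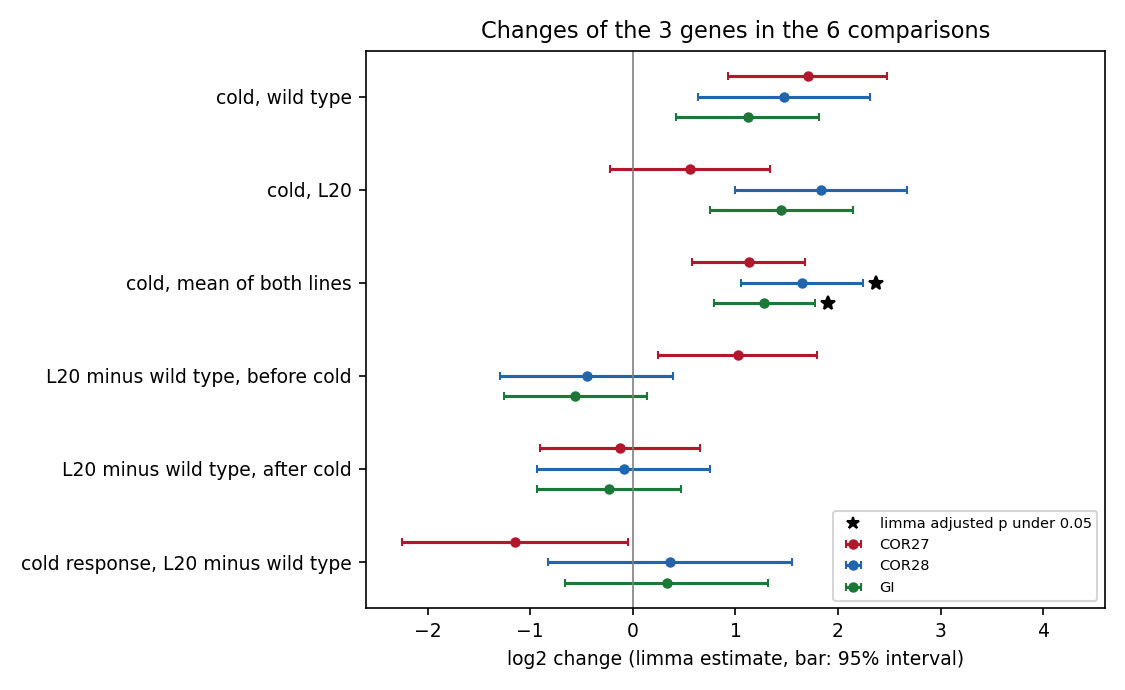
Log2 changes of COR27, COR28 and GI in the 6 comparisons, as limma estimates with 95% intervals; a star marks a limma adjusted p under 0.05. The stars stand at COR28 (1.65) and GI (1.28) for the mean cold response, and COR27 has the lowest value for cold in L20 (0.56) and the 1 positive value between the unchilled lines (1.02).

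L20 was set against wild type before cold to ask how the transgenic line differed without chilling. COR27 was 2.03-fold higher in L20 by its mean, a log2 difference of 1.02 ± 0.33 with a 95% interval of the fold from 1.18 to 3.48. It had an unadjusted p = 0.0175 and limma's adjusted p = 0.699, so it missed the test over all probe sets. The difference was 1.75 in replicate 1 and 0.29 in replicate 2, and it ran from 0.64 to 1.40 with 1 array left out. COR28 stood at -0.45 ± 0.35 (fold 0.409 to 1.31) and GI at -0.56 ± 0.30 (0.417 to 1.10), both with limma's adjusted p = 1.00. Limma called 0 of the 3 genes, where 0.0176% of all probe sets were called, and COR27 was the 1 gene with an unadjusted p under 0.05, a level that 5.54% of all probe sets reached. Like COR27, COR28 and GI depended on the unchilled arrays: in replicate 1 they differed by 0.09 and -0.07, and in replicate 2 by -0.996 and -1.05.

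After cold the lines were close. L20 minus wild type was -0.12 ± 0.33 for COR27, -0.09 ± 0.35 for COR28 and -0.23 ± 0.30 for GI. The 95% intervals of the fold ran from 0.535 to 1.57, from 0.525 to 1.68 and from 0.525 to 1.39, so differences of that size in either direction were within the error. Limma called 0 of the 3 (adjusted p = 1.00 for each) and 0% of all probe sets. At an unadjusted p under 0.05 there were 19 probe sets, 0.0835% of all, and 0 of the 3 genes. Low p-values were thus rare in this comparison, and the absence of calls does not show that the lines were alike.

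The difference of the cold responses, L20 minus wild type, was -1.15 ± 0.46 for COR27. Its unadjusted p was 0.0436 and limma's adjusted p was 1.00. For COR28 it was 0.36 ± 0.50 and for GI 0.33 ± 0.42, with 95% intervals of -0.83 to 1.55 and of -0.66 to 1.32 on the log2 scale. Limma called 0% of probe sets here, with 497 (2.18% of all) at an unadjusted p under 0.05. A different cold response of the lines was thus not shown for any of the 3 genes. The smaller change of COR27 in L20 and its higher unchilled level there come from the same 2 arrays.

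COR27 was also read against the other genes within each array, a comparison chosen after the values were seen and given without a test. The signal of COR27 minus that of COR28 was 1.78 and 1.14 in the unchilled L20 arrays and between -0.21 and 0.64 in the other 6. COR27 minus GI was 1.18 and 0.77 in unchilled L20 and between -0.64 and 0.33 elsewhere. Between unchilled wild type and unchilled L20 these differences shifted by 1.47 and 1.58. COR28 minus GI shifted by 0.11 in the same comparison. These shifts follow from the group means given above, so they are not separate evidence for a difference between the unchilled lines. The share of gene pairs with such a separation of arrays was not counted. The zero of such a difference carries no meaning, because different probe sets bind with different strength. Its shift between arrays measures how unequally the 2 genes changed. Replicate gaps shared by the genes, such as that in unchilled wild type, drop out of it.

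**Figure D3:**
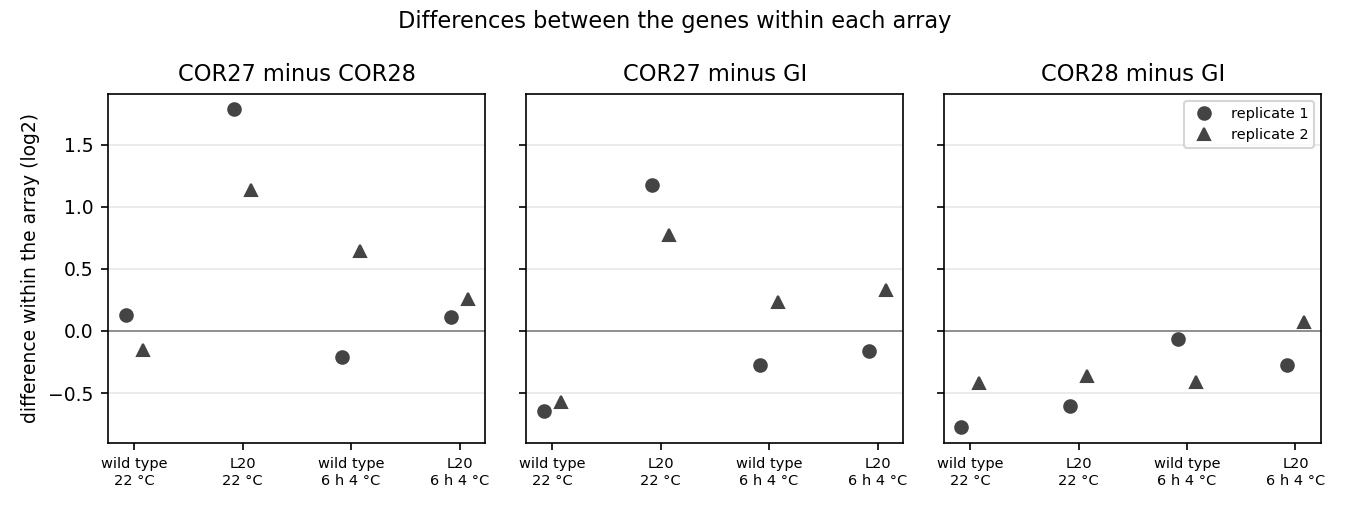
Differences between the log2 signals of the 3 genes within each array, by line and temperature; circles are replicate 1 and triangles replicate 2. Both differences that involve COR27 are highest on the 2 unchilled L20 arrays (1.78 and 1.14 against COR28, 1.18 and 0.77 against GI), and COR28 minus GI shows no such step. The share of gene pairs with this separation was not counted.

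Over the 8 arrays, which share the 4 groups, the profiles of COR28 and GI correlated at r = 0.974. COR27 correlated at 0.700 with COR28 and at 0.652 with GI. Of the 4774 named probe sets with an SD of at least 0.3, GI was the eighth most like COR28, while COR28 came at place 348 in likeness to COR27. These correlations describe the arrays and carry no test.

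The genes whose profiles came closest to COR27 were AT5G51570 (r = 0.981), AT2G46170, AT5G17850, AT2G23120 and AT2G22080 (0.969). Since they were picked for their likeness over these arrays, a shared group pattern follows from the choice, and their values are given as a description. AT2G23120, for example, differed by 2.63 with cold in wild type, where it was called (limma adjusted p = 0.0420), by 0.90 in L20, and by 1.83 between the unchilled lines. With 1 array left out it was called in the fit without replicate 2 of unchilled wild type (3.20) and missed in the other 7, where its wild-type change ran from 2.06 to 2.65. Closest to COR28 were AT1G22570 (0.986), AT5G59400, NDC1, AT1G66330 and AT4G28025 (0.977). NDC1 encodes an NAD(P)H dehydrogenase. AT5G59400 was called with cold in both lines, at 1.69 in wild type and 2.04 in L20 (limma adjusted p = 0.0453 and 0.0294). With 1 array left out these adjusted p-values rose to at most 0.352 and 0.209.

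AT1G66330 (0.988) was also the gene most like GI. It was followed by AT4G13010, AT5G12470, XTH32, a cell-wall xyloglucan enzyme, and AOR, an alkenal oxidoreductase (0.980). The direction that these genes share with COR28 and GI follows from the choice as well. The membership of these lists depended on the replicates: with the mean of each replicate number taken out, 2 of 5 stayed for COR27, 1 of 5 for COR28 and 2 of 5 for GI.

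Of 35 clock and photoperiod loci considered, 4 had a probe set of their own in the annotation used here: the 3 genes and AT5G52660. Probe sets of the other loci may be among the 8730 that were unnamed here. AT5G52660 gave 6.55 and 6.12 in unchilled and 7.92 and 7.78 in chilled wild type, and 6.72 and 6.28 before and 8.21 and 7.22 after cold in L20. It rose by 1.36 ± 0.25 in the mean cold response (limma adjusted p = 0.0477), so that 3 of 4 list members, COR28 and GI among them, were called upwards and 0 downwards, beside 2.11% of all probe sets called in either direction. The list had a median mean cold change of 1.32, against 0.01 over all probe sets, but 3 of its 4 measured members are the genes described above, so the median restates their values. For cold in wild type and cold in L20 limma called 0 of 4, beside 0.532% and 0.378% of all probe sets. At an unadjusted p under 0.05 there were 4 and 3 of the 4, beside 6.63% and 9.73%. When replicate number was added as a block, AT5G52660 was called in both (limma adjusted p = 0.0278 and 0.0452), where 1.57% and 2.55% of all probe sets were. Its call in the mean cold response was lost in 7 of 8 fits with 1 array left out, with limma's adjusted p up to 0.162. The core clock genes CCA1, LHY, TOC1 and the PRR genes were not analysed here.

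HYH, a bZIP factor that acts with HY5 in light signalling, was the 1 of 17 light-signalling loci with such a probe set. It was at 4.42 and 4.84 before and 5.17 and 5.49 after cold in wild type. In L20 it was at 3.98 and 4.80 before and 5.59 and 5.81 after cold. Its mean cold change was 1.01 ± 0.22 and missed at limma's adjusted p = 0.0808, while the replicate block gave 0.00921. Between the unchilled lines it differed by -0.24 ± 0.31, which turned to 0.17 without replicate 1 of unchilled L20.

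Of 18 loci listed here as the CBF regulon, cold genes linked to the CBF transcription factors, 6 had such a probe set. COR27 and COR28 are among them and also on the clock list. Whether the CBF factors control either gene was not tested. In the mean cold response all 6 rose and 5 were called, beside 2.11% of all probe sets, and COR27 was the member that missed. The lines differed in this: with cold in wild type limma called 4 of the 6, beside 0.532% of all probe sets. With cold in L20 it called 0 of the 6, beside 0.378%, and COR47 had a negative change there, -0.23. Between the unchilled lines the other 4 genes, LTI30, COR15A, COR15B and COR47, stood 1.85 to 4.61 higher in L20. Limma called 0 of the 6, beside 0.0176% of all probe sets. An unadjusted p under 0.05 was found for 5, beside 5.54%. When replicate number was the block, LTI30, COR15B and COR47 were higher (limma adjusted p = 0.0376, 0.0164 and 0.0371), where 0.167% of all probe sets were called, and COR27 was not (0.318). COR27 lay below that range at 1.02, and COR28 was the 1 member with a negative difference. For the difference of the cold responses these 4 stood between -4.53 and -1.78, COR27 at -1.15 and COR28 at 0.36. The median of the 6 was -1.90, against -0.04 over all probe sets, and limma called 0 of 6, with 5 at an unadjusted p under 0.05, beside 2.18% of all probe sets. Both comparisons use the unchilled arrays of both lines, so they are not separate evidence.

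**Figure D4:**
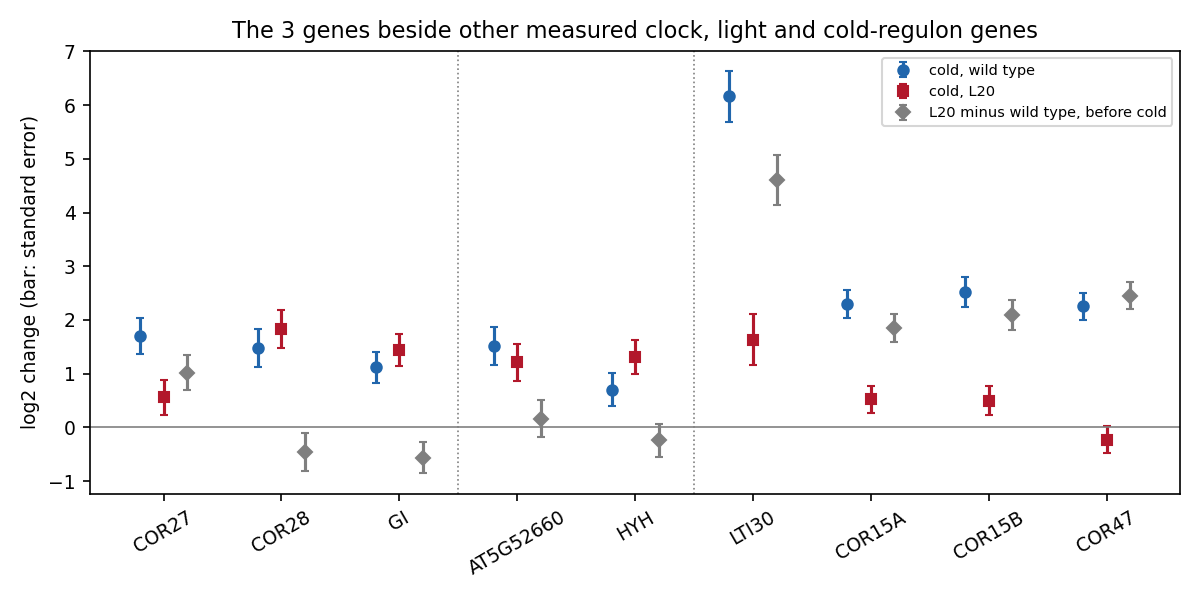
Log2 changes (limma estimate, bars: standard error) with cold in wild type, with cold in L20 and between the unchilled lines, for the 3 genes, AT5G52660, HYH and 4 genes of the CBF regulon. COR28 and GI have positive cold changes in both lines and negative differences between the unchilled lines, while LTI30, COR15A, COR15B and COR47 stand 1.85 to 4.61 higher in unchilled L20 and COR27 at 1.02.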

How the data were processed

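The authors deposited 1 table of log2 signals for 22810 probe sets on 8 arrays. RMA, which corrects background, normalizes arrays and summarises probes, is named by the submitters' processing notes without a version. Array medians of the log2 signal were 4.95 to 5.05 and upper quartiles 6.28 to 6.64. Such a normalization can remove shifts common to most genes, but the upper quartiles still differed between the arrays. After 64 control probe sets were left out, 22746 were tested. The platform annotation, updated through RefSeq (TAIR10.1), gave 13513 of them 1 gene and 503 several. 8730 were unnamed here.

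limma 3.58.1 in R 4.3.3 was fitted to all 8 arrays with 1 mean for each group (eBayes, two-sided, Benjamini-Hochberg adjustment over all tested probe sets, threshold 0.05) for 6 comparisons, and checked on simulated arrays. The precision is limited by the 2 arrays per group: an exact permutation test of 2 against 2 cannot go below p = 0.333. The labels call the replicates biological but do not say how they were grown. The p-values thus reflect only how far these samples differ, and that difference may be technical. Alternatives were the replicate block, median centring, quantile normalization, trend and robust settings, a filter on the dimmest 25% of probe sets, the 2 groups alone, and leaving out each array.

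Replicate 1 minus replicate 2 correlated at 0.341 to 0.837 across probe sets for every pair of groups. On that basis equal numbers were taken as a batch in the replicate block, and the main fit left this batch out. The labels do not state one. The 3 genes and the gene lists were chosen with earlier results of these data known. The genes named were the 3, the measured list members that were called or had the smallest p, and for each of the 3 genes the 5 named genes with the highest Pearson r over 8 arrays. TabZIP6 and promoter and protein sequences were not analysed here.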

Additional observations from a re-analysis of the deposited data

How the results depend on the processing

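Over 18 results (3 genes in 6 comparisons), 246 alternative values were computed, of which 221 kept their direction and their side of the threshold. Quantile normalization brought 4 results past it: COR27 with cold in wild type (1.64, limma adjusted p = 0.0496), COR28 and GI with cold in L20 (1.89 and 1.5002, 0.0305 and 0.0221) and COR27 in the mean cold response (1.14, 0.0235). The replicate block did so for COR27 in the mean cold response (1.13, 0.0397) and changed no other call of the 3 genes. With 1 array left out, the mean cold change ran from 1.39 to 1.91 for COR28 and from 1.11 to 1.46 for GI, and the call was lost in 6 of 8 and 7 of 8 fits. Signs turned for 7 values from fits with 1 array left out, all of results that were not called. L20 minus wild type before cold ran from -0.97 to 0.072 for COR28, positive without replicate 2 of wild type. After cold it ran from -0.29 to 0.037 for COR27, from -0.35 to 0.17 for COR28 (positive also at 0.0078 in a second fit) and from -0.50 to 0.041 for GI. The difference of the cold responses ran from -0.16 to 0.88 for COR28 and from -0.015 to 0.68 for GI. Of the other named values, HYH between the unchilled lines ran from -0.64 to 0.17, positive without replicate 1 of unchilled L20. Why quantile normalization and the block moved these calls was not tested.

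Counts over all probe sets moved more. They went from 121 to 357 with the replicate block for cold in wild type, from 86 to 580 for cold in L20, from 480 to 1409 for the mean cold response and from 4 to 38 between the unchilled lines. Quantile normalization gave 183, 204, 693 and 17, and the 2 groups alone gave 65, 0 and 1 for the comparisons it allows. With 1 array left out the lowest counts were 0, 0, 137 and 0. The count stayed at 0 in every alternative for the lines after cold and for the difference of the cold responses.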
